A study of Mus musculus with 9 samples.

Results

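The chemokine ligand family was described in mouse mammary cell preparations taken at different points of a cell isolation procedure. Members were all genes named Ccl, Cxcl or Cx3cl with a number and an optional letter that had an array row with 1 gene symbol, leaving out Ccl19 and Cxcl13. This gave 31 of the 19938 genes measured. Ccl21 and Ccl27 genes had only rows shared by several genes and were not members.

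Chemokines are small secreted proteins that steer the movement of leukocytes by binding receptors with 7 membrane passes on their surface. Cxcl1, Cxcl2, Cxcl3 and Cxcl5 attract neutrophils through Cxcr2, and stimuli that activate NF-kB raise their transcription. Cxcl9, Cxcl10 and Cxcl11 are induced by interferons and attract T cells and natural killer cells through Cxcr3. Homeostatic chemokines such as Cxcl12 are made without inflammation and place leukocytes and progenitors in tissues. Epithelium, vessels, fibroblasts and resident leukocytes can all make chemokines, and bulk RNA cannot tell fewer cells of a type from less RNA per cell.

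The cells came from wild-type C3H female mice, 8 to 9 weeks old, and were freed from mammary fat with collagenase, which all groups therefore met. Mock sorted cells had been digested with trypsin and then passed through a mock fluorescence-activated cell sort, trypsinized cells had been digested with trypsin, and untrypsinized cells had met collagenase without trypsin. RNA of each group was measured on 3 Affymetrix arrays, called biological replicates in the labels, which do not say whether animals were pooled or shared, so the p-values reflect how these samples varied, and some of that variation may be technical. The labels call the preparations epithelial cells. The 14 luminal epithelial markers had a summed intensity of 114821 to 116022 in mock sorted, 112095 to 112853 in trypsinized and 103990 to 107176 in untrypsinized arrays. The 10 basal epithelial markers lay in the opposite order, at 54743 to 55686, 58401 to 60041 and 60876 to 62704 in the same groups. Of these, Mylk was called lower in mock sorted against untrypsinized cells (10%, where 3.4% of all genes were). Markers of other cells were also measured. The 14 measured endothelial markers summed to 15543 to 18429 in mock sorted, 32598 to 33140 in trypsinized and 41563 to 47509 in untrypsinized arrays. Summed intensity of 9 T cell markers was 12360 and 13514 in mock sorted and trypsinized replicate 1, against 4515 to 5820 in the other arrays of those groups and 2526 to 3218 in untrypsinized arrays. These replicate 1 arrays therefore stood apart in T cell genes, and the Ccl5, Ccl22, Ccr7, Ccr8 and T cell marker results are given with and without replicate 1.

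Levels below are log2 of intensity plus 1, and changes are differences of group means on that scale with their standard error (SE). A gene was called when its adjusted p, from limma with Benjamini-Hochberg adjustment over all 19938 genes, was 0.05 or below and its fold was at least 1.5, or 0.58 on the log2 scale. As a guide to dim rows, the mean level of 1190 olfactory and vomeronasal receptor genes had a median of 6.54 and a 95th percentile of 8.13. All 31 chemokine genes lay above that median and 22 above that percentile.

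Promoters are shown for Cxcl10 and Cxcl9, the members called lower in mock sorted against trypsinized cells, and for the neutrophil-attracting ligands in the promoter table, Cxcl1, Cxcl2, Cxcl3 and Cxcl15, with which they are compared. Each window holds the 250 bases before the RefSeq start of the gene on GRCm38.p6, written 5′ to 3′ on the gene's strand. Cxcl10 lies on the minus strand at chr5:92348890-92349139 and Cxcl9 on the minus strand at chr5:92328080-92328329. Cxcl1 (chr5:90890995-90891244), Cxcl2 (chr5:90903649-90903898) and Cxcl3 (chr5:90785851-90786100) lie on the plus strand, as does Cxcl15 (chr5:90794284-90794533). Capitals mark matches on either strand to the NF-kB pattern, GGGA and TTCC with any 2 bases between them, or to the interferon response pattern, GAAA and GAAA with any 2 bases between them.
Cxcl10: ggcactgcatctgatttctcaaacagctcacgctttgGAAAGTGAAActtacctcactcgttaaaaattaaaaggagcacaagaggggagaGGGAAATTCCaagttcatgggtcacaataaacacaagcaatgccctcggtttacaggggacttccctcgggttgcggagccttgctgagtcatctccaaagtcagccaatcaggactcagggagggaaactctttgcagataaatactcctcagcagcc
Cxcl9: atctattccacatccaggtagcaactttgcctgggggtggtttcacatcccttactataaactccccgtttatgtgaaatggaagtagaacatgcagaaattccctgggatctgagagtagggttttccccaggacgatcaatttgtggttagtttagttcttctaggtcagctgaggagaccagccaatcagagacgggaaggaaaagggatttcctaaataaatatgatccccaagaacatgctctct
Cxcl1: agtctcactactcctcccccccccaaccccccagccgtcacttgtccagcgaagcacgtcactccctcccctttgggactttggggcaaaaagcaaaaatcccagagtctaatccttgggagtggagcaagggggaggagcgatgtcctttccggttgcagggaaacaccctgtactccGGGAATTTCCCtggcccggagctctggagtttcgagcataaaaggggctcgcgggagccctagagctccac
Cxcl2: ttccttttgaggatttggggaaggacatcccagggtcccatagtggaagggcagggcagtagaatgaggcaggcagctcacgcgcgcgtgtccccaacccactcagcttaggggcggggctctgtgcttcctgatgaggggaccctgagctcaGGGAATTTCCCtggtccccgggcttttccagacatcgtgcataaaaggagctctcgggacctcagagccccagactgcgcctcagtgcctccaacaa
Cxcl3: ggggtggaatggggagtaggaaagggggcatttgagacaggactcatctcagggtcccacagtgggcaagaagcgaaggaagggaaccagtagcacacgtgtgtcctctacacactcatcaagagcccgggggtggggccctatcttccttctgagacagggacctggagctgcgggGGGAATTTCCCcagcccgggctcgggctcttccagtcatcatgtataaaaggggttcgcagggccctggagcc
Cxcl15: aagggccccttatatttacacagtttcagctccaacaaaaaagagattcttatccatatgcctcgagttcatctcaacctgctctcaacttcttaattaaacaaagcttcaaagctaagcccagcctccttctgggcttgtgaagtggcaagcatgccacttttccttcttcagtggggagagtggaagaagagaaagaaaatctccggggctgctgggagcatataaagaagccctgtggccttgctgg
Cxcl1, Cxcl2 and Cxcl3 each held GGGAATTTCC, beginning 71, 97 and 73 bases before the start, and the match on the other strand overlaps it by all but its first base. Cxcl10 held GGGAAATTCC at 159 bases and GAAAGTGAAA at 213 bases before the start, and the Cxcl9 and Cxcl15 windows held neither pattern in these letters. The NF-kB pattern was in 1.21% and the interferon pattern in 2.98% of 32851 RefSeq promoter windows of the same length. Counted by gene, as the members are below, the shares were 1.36% and 3.46% of 27025 genes. Of the 20 members with a RefSeq promoter in the table used, 5 held the NF-kB pattern (the other two were Cxcl10 and Ccl1) and 2 held the interferon pattern, Cxcl10 and Cxcl14. A match describes letters and is not evidence of binding.

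No member was called after trypsin, 2 were called lower after the mock sort alone, and 6 were called lower after trypsin and mock sort together. Trypsinized against untrypsinized cells gave 0 of 31 members called higher and 0 called lower by limma, where 0.532% and 0.933% of all genes were called. With no minimum fold, 9 members were higher and 4 lower by the adjusted p (29% and 12.9%, where 13.9% and 11.5% of all genes were), while 11 higher and 6 lower members had an unadjusted p under 0.05. Mock sorted against trypsinized cells gave 2 of 31 called lower, Cxcl9 and Cxcl10, or 6.45% where 1.17% of all genes were called lower, and 0 called higher, where 0.0251% of genes were. With no minimum fold, 0 were higher and 6 lower in that comparison (19.4% lower, where 0.466% of all genes were higher and 4.2% lower), and 2 higher and 11 lower members had an unadjusted p under 0.05. Mock sorted against untrypsinized cells gave 6 of 31 called lower, or 19.4% where 3.4% of all genes were called lower. These were Cxcl9, Cxcl10, Cxcl11, Cxcl12, Ccl9 and Ccl11, and 0 were called higher, where 1.08% of genes were. Without adjustment, p was under 0.05 for 10 higher and 9 lower members. The last comparison shares its arrays with the other two, so its calls are no separate evidence. Over the 3 groups, 15 of 31 members differed by the moderated F test, where 33.2% of all genes did.

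**Figure D1:**
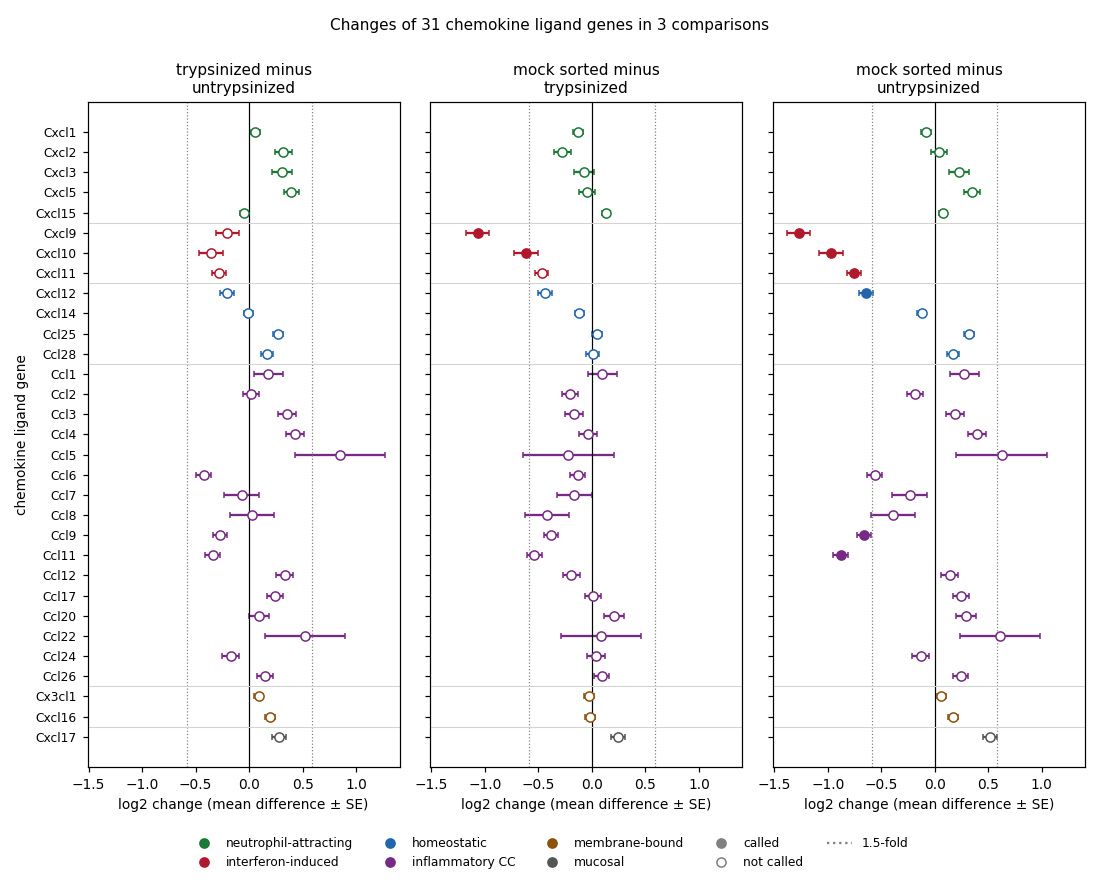
Log2 change with SE (horizontal axis) of the 31 chemokine ligand genes (rows, coloured by role) in the 3 comparisons, with filled points for called genes and dotted lines at 1.5-fold. The filled points are Cxcl9 and Cxcl10 for mock sorted minus trypsinized cells, and those with Cxcl11, Cxcl12, Ccl9 and Ccl11 for mock sorted minus untrypsinized cells, and all lie left of 0.

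All 3 interferon-induced ligands were called lower in mock sorted against untrypsinized cells, and 2 of them against trypsinized cells. Cxcl9, Cxcl10 and Cxcl11 are neighbours on chromosome 5, with only Art3 annotated as a coding gene between Cxcl9 and Cxcl10. Cxcl9 was at 10.55, 10.07 and 10.35 in mock sorted, 11.41, 11.34 and 11.40 in trypsinized and 11.51, 11.63 and 11.63 in untrypsinized arrays. Every mock sorted array lay below every trypsinized array, which in turn lay below every untrypsinized array. Cxcl9 fell by 1.07 (SE 0.11, adjusted p = 0.000737) in mock sorted against trypsinized cells, or 2.09-fold lower. Against untrypsinized cells it fell by 1.27 (SE 0.11, adjusted p = 6.5e-05), while trypsinized minus untrypsinized was -0.20 (SE 0.11, adjusted p = 0.191) and not called.

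Cxcl10, which shares the receptor Cxcr3 with Cxcl9, was at 10.64, 10.17 and 10.58 in mock sorted, 11.07, 11.07 and 11.11 in trypsinized and 11.39, 11.39 and 11.54 in untrypsinized arrays. The 3 groups did not overlap, and mock sorted replicate 2 was the lowest array for both Cxcl9 and Cxcl10. Cxcl10 fell by 0.62 (SE 0.11, adjusted p = 0.018) in mock sorted against trypsinized cells, and this call sat close to both thresholds. It was lost with the replicate number as a block in the 6 trypsinized and mock sorted arrays (adjusted p = 0.067), in a fit of only these 2 groups (adjusted p = 0.0538) and without any 1 of the trypsinized arrays (adjusted p = 0.0611 to 0.0733). Without mock sorted replicate 2 its change was -0.47, under the minimum fold (adjusted p = 0.00585), and without the replicate 1 arrays of all groups its adjusted p was 0.0624. Against untrypsinized cells Cxcl10 fell by 0.97 (SE 0.11, adjusted p = 0.000381), a call kept under each of 20 alternative settings, with log2 changes of -1.12 to -0.82.

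Cxcl11, the third Cxcr3 ligand, is classed in the RefSeq table of the C57BL/6J genome as a transcribed pseudogene, while these cells were C3H. It was at 7.46, 7.56 and 7.57 in mock sorted, 7.95, 8.00 and 8.06 in trypsinized and 8.15, 8.38 and 8.33 in untrypsinized arrays. Again the groups did not overlap, at levels within or just above the range of most olfactory receptor genes, where array background can make a fold smaller. Cxcl11 fell by 0.75 (SE 0.06, adjusted p = 7.03e-05) in mock sorted against untrypsinized cells. Against trypsinized cells the change was -0.47 (SE 0.06, adjusted p = 0.00421), which passed the adjusted p but not the minimum fold. The median change of the 3 ligands was -0.62 for mock sorted minus trypsinized and -0.97 for mock sorted minus untrypsinized, where the median over all genes was 0.00 and 0.05.

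**Figure D2:**
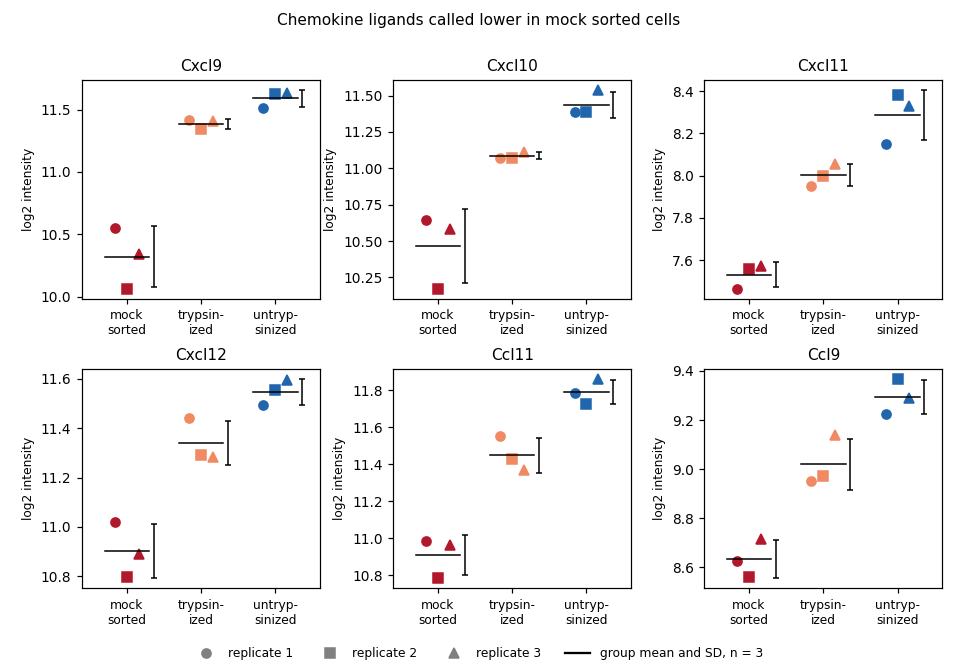
Log2 intensity (vertical axis, scaled per gene) of the 6 chemokine ligands called lower in mock sorted cells, per array, with group means and SD of 3 arrays. For Cxcl9, Cxcl10, Cxcl11, Cxcl12, Ccl11 and Ccl9 the 3 mock sorted arrays lie below all trypsinized arrays, and those below all untrypsinized arrays.

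Other interferon-responsive genes were read beside these ligands. Of 16 measured genes of the interferon response list, 0 were called in trypsinized against untrypsinized cells, where 0.532% of all genes were called higher and 0.933% lower. At an adjusted p of 0.05 or below with no minimum fold, 8 were lower and 0 higher (50% lower, where 11.5% of all genes were). In mock sorted against trypsinized cells 2 were called lower (12.5%, where 1.17% of all genes were), Ifit1 and Ifit3, which encode interferon-induced antiviral proteins. Ifit1 averaged 9.71 ± 0.15 in mock sorted, 10.37 ± 0.05 in trypsinized and 10.75 ± 0.09 in untrypsinized arrays (SD, n = 3 each), and Ifit3 averaged 9.19 ± 0.16, 9.88 ± 0.09 and 10.37 ± 0.14 in the same groups. In mock sorted against untrypsinized cells 4 were called lower (25%, where 3.4% of all genes were), with a list median of -0.31. The added 2 were Gbp3, a guanylate-binding protein (-0.75, SE 0.07), and Mx2, an antiviral GTPase (-0.66, SE 0.09). Mx2 was dim, at 7.55 ± 0.12 in mock sorted and 8.21 ± 0.11 in untrypsinized arrays. With no minimum fold, 11 of 16 were lower in that comparison (68.8%, where 18% of all genes were) and 0 higher. Among the 12 uncalled genes, changes ran from -0.58 for Ifit2 and -0.55 for Irf1 to 0.14 for Mx1 and 0.19 for Oas2, and the last 2 had adjusted p = 0.34 and 0.0725.

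Neutrophil-attracting ligands had 0 of 5 members called in any comparison. Cxcl2 was at 11.00, 10.81 and 10.86 in mock sorted, 11.28, 11.16 and 11.07 in trypsinized and 10.87, 10.73 and 10.95 in untrypsinized arrays. The trypsinized arrays lay above all others, and mock sorted and untrypsinized arrays overlapped. Trypsinized minus untrypsinized was 0.32 for Cxcl2 (SE 0.08, adjusted p = 0.0217), or 1.25-fold, and mock sorted minus trypsinized was -0.28 (SE 0.08, adjusted p = 0.0995). Cxcl5 was at 8.34, 8.12 and 8.19 in mock sorted, 8.29, 8.23 and 8.28 in trypsinized and 8.00, 7.77 and 7.84 in untrypsinized arrays. Here both mock sorted and trypsinized arrays lay above all untrypsinized arrays, by 0.35 (SE 0.07, adjusted p = 0.0071) and 0.39 (SE 0.07, adjusted p = 0.00754). The mean of Cxcl5 over the 9 arrays, 8.12, was just under the 95th percentile of olfactory receptor genes. Cxcl3 was dimmer, at 6.64, 6.88 and 6.91 in mock sorted, 6.74, 6.90 and 7.00 in trypsinized and 6.45, 6.64 and 6.64 in untrypsinized arrays, with a trypsinized minus untrypsinized change of 0.30 (SE 0.10, adjusted p = 0.0482).

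Cxcl1, an epithelial and stromal neutrophil attractant close to Cxcl2 in sequence and position, was at 11.52, 11.50 and 11.49 in mock sorted, 11.72, 11.60 and 11.58 in trypsinized and 11.53, 11.56 and 11.65 in untrypsinized arrays. Its changes were all under 0.15 in size, with the lowest adjusted p at 0.203. Cxcl15, described in mice as a neutrophil attractant of lung epithelium, was at 12.34, 12.39 and 12.35 in mock sorted, 12.19, 12.29 and 12.21 in trypsinized and 12.29, 12.27 and 12.28 in untrypsinized arrays. The mock sorted arrays of Cxcl15 lay just above the rest, by 0.13 over trypsinized cells (SE 0.04, adjusted p = 0.111). The group's median change was 0.30 for trypsinized minus untrypsinized, -0.08 for mock sorted minus trypsinized and 0.08 for mock sorted minus untrypsinized cells, where all genes had medians of 0.04, 0.00 and 0.05. The medians of 0.30 and -0.08 are the values of the dim Cxcl3 itself. For trypsinized minus untrypsinized cells Cxcl1 and Cxcl15 were at 0.05 and -0.05, and Cxcl2 and Cxcl5 at 0.32 and 0.39.

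**Figure D3:**
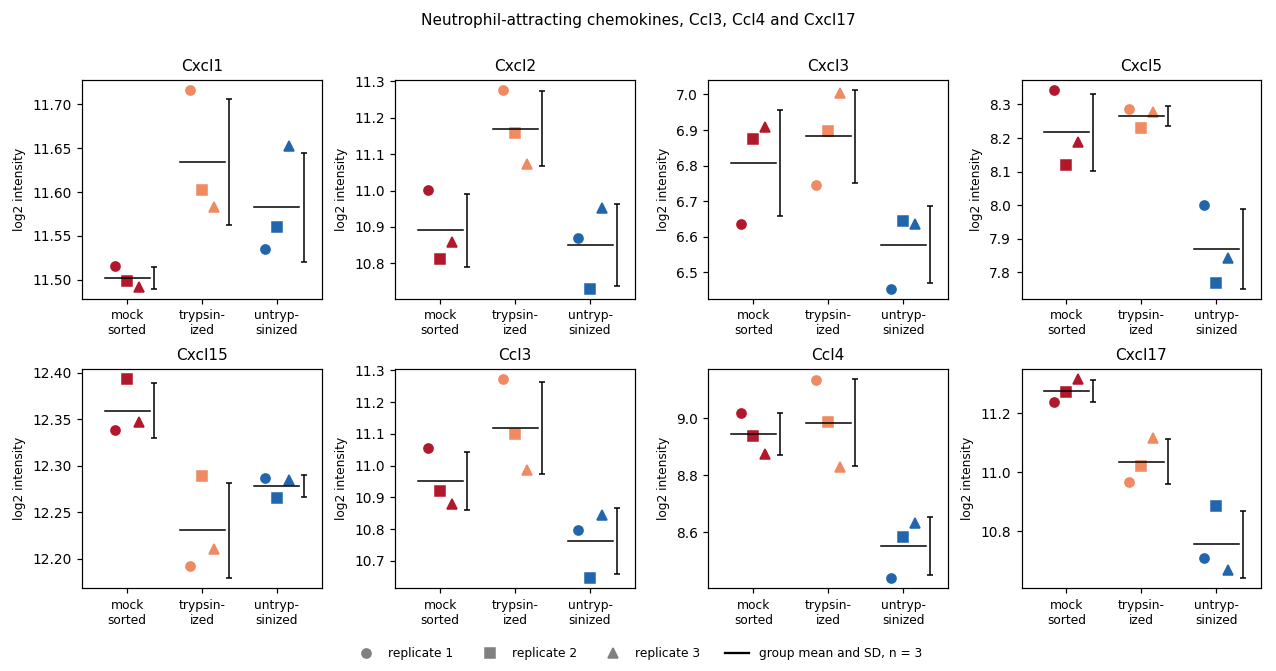
Log2 intensity (vertical axis, scaled per gene) of the 5 neutrophil-attracting ligands and of Ccl3, Ccl4 and Cxcl17, per array, with group means and SD of 3 arrays. For Cxcl2, Cxcl3, Cxcl5, Ccl3, Ccl4 and Cxcl17 all trypsinized arrays lie above all untrypsinized arrays, and none of the 8 genes was called.

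These small positive differences depended in part on how arrays are scaled. When each array was brought to the same median, taken over all rows, the median change of all genes for trypsinized minus untrypsinized cells was -0.09 in place of 0.04. Cxcl2 was then at 0.18 (adjusted p = 0.0947), Cxcl3 at 0.17 (adjusted p = 0.2), Cxcl5 at 0.26 (adjusted p = 0.0477) and Cxcl1 at -0.082 (adjusted p = 0.179). For mock sorted minus untrypsinized cells Cxcl1 was then at -0.23 (adjusted p = 0.0028) and Cxcl5 at 0.20 (adjusted p = 0.102). After quantile normalization over all rows Cxcl5 was at 0.16 (adjusted p = 0.21) in that comparison and at 0.24 (adjusted p = 0.0949) for trypsinized minus untrypsinized cells. Of the 18 measured NF-kB responders, 2 were called higher in trypsinized against untrypsinized cells, the cytokine genes Tnf and Lif (11.1%, where 0.532% of all genes were). In mock sorted against trypsinized cells 1 was called lower, Il6 (5.56%, where 1.17% of all genes were). By the adjusted p alone, 9 of 18 were higher and 3 lower in trypsinized against untrypsinized cells (50% and 16.7%, where 13.9% and 11.5% of all genes were). Tnf averaged 11.05 ± 0.09 in mock sorted, 11.05 ± 0.02 in trypsinized and 10.32 ± 0.03 in untrypsinized arrays (SD, n = 3 each). Il6 averaged 11.07 ± 0.11, 11.90 ± 0.07 and 12.31 ± 0.06 in the same groups, so 2 cytokine genes of the list lay on opposite sides. In mock sorted against untrypsinized cells Csf2, a myeloid growth factor, was called higher with Tnf, and Vcam1, a leukocyte adhesion molecule, was called lower with Il6. Each pair was 11.1% of the list, where 1.08% of all genes were called higher and 3.4% lower.

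Markers of neutrophils themselves had small sums that differed little, though every untrypsinized array lay below all others. The 10 neutrophil markers summed to 2536 to 2626 in mock sorted, 2514 to 2583 in trypsinized and 2346 to 2470 in untrypsinized arrays, with 0 of 10 called in any comparison, and the receptor Cxcr2 was at 6.55 to 7.28 over the 9 arrays, near the olfactory receptor median. Limma gave 0 of these markers with an adjusted p of 0.05 or below in the comparisons with trypsinized cells on either side, and 1 higher in mock sorted against untrypsinized cells. Sums this small over 10 genes come from dim rows, where array background can make a fold smaller.

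Of the homeostatic ligands 4 had a row of their own, and Cxcl12 was called lower in 1 comparison. Cxcl12, the ligand of Cxcr4 and of the scavenger Ackr3 and a product of stroma and vessels, was at 11.02, 10.80 and 10.89 in mock sorted, 11.44, 11.29 and 11.28 in trypsinized and 11.49, 11.55 and 11.60 in untrypsinized arrays. The groups did not overlap. Cxcl12 fell by 0.64 (SE 0.07, adjusted p = 0.000208) in mock sorted against untrypsinized cells. Its change was -0.44 (SE 0.07, adjusted p = 0.0078) for mock sorted minus trypsinized cells and -0.21 (SE 0.07, adjusted p = 0.0538) for trypsinized minus untrypsinized cells, both under the minimum fold.

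The other homeostatic ligands were not called in any comparison. Cxcl14, a chemokine of epithelia, was at 12.18, 12.27 and 12.22 in mock sorted, 12.28, 12.39 and 12.34 in trypsinized and 12.36, 12.38 and 12.29 in untrypsinized arrays, with no adjusted p of 0.05 or below. Ccl25, known for drawing Ccr9-bearing T cells to thymus and gut, was at 8.71, 8.66 and 8.80 in mock sorted, 8.68, 8.67 and 8.67 in trypsinized and 8.44, 8.42 and 8.34 in untrypsinized arrays. Untrypsinized arrays of Ccl25 lay below all others, by 0.32 (SE 0.05, adjusted p = 0.00113) against mock sorted and 0.27 (SE 0.05, adjusted p = 0.0056) against trypsinized arrays. With a common array median these differences of Ccl25 were 0.17 (adjusted p = 0.0584) and 0.14 (adjusted p = 0.135). Over 20 alternative settings the trypsinized minus untrypsinized change of Ccl25 was as low as 0.10. Ccl28, a mucosal chemokine that draws antibody-secreting cells to the lactating gland, was dim here, at 7.62, 7.80 and 7.76 in mock sorted, 7.72, 7.69 and 7.76 in trypsinized and 7.48, 7.60 and 7.60 in untrypsinized arrays. Its change of 0.17 in mock sorted against untrypsinized cells (adjusted p = 0.0456) turned to -0.031 after quantile normalization over all rows. The median of the 4 genes was 0.08 for trypsinized minus untrypsinized and 0.02 for mock sorted minus untrypsinized cells, over members that lay on either side of 0, where all genes had medians of 0.04 and 0.05.

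Among the 16 inflammatory CC ligands, Ccl11 and Ccl9 were called lower in mock sorted against untrypsinized cells. Ccl11, eotaxin, draws eosinophils through Ccr3, which in the mouse mammary gland take part in duct growth. It was at 10.98, 10.79 and 10.96 in mock sorted, 11.55, 11.43 and 11.37 in trypsinized and 11.78, 11.73 and 11.86 in untrypsinized arrays. The groups did not overlap. Ccl11 fell by 0.88 (SE 0.07, adjusted p = 4.8e-05), or 1.84-fold lower, in mock sorted against untrypsinized cells, and the changes of the single steps were -0.54 (mock sorted minus trypsinized, adjusted p = 0.00321) and -0.34 (trypsinized minus untrypsinized, adjusted p = 0.011), both under the minimum fold.

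Ccl9, a Ccr1 ligand of mouse myeloid cells, was at 8.63, 8.56 and 8.72 in mock sorted, 8.95, 8.97 and 9.14 in trypsinized and 9.23, 9.37 and 9.29 in untrypsinized arrays, and fell by 0.66 (SE 0.07, adjusted p = 0.000164) in mock sorted against untrypsinized cells. Ccl6, its neighbour on chromosome 11 and likewise a mouse myeloid product, was at 8.56, 8.63 and 8.81 in mock sorted, 8.72, 8.85 and 8.83 in trypsinized and 9.16, 9.22 and 9.30 in untrypsinized arrays. The change of Ccl6 for mock sorted minus untrypsinized cells was -0.56 (SE 0.07, adjusted p = 0.000565), just under the minimum fold, and it passed with a common array median at -0.71 and after quantile normalization over all rows at -0.65. Macrophage markers summed to 13502 to 16524 in mock sorted, 15476 to 18223 in trypsinized and 16166 to 17191 in untrypsinized arrays. Of these 11 markers, 2 were called lower in mock sorted against untrypsinized cells, Adgre1 and Mrc1 (18.2%, where 3.4% of all genes were). The part of macrophage RNA in the values of Ccl9 and Ccl6 was not tested.

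Ccl3 and Ccl4, neighbouring genes whose products draw monocytes and T cells, lay higher in trypsinized than in untrypsinized arrays. Ccl4 was at 9.02, 8.94 and 8.87 in mock sorted, 9.14, 8.99 and 8.83 in trypsinized and 8.44, 8.58 and 8.63 in untrypsinized arrays. Its change was 0.43 (SE 0.08, adjusted p = 0.00893) for trypsinized minus untrypsinized and 0.39 (SE 0.08, adjusted p = 0.00763) for mock sorted minus untrypsinized cells, under 1.5-fold. Ccl3 was at 11.05, 10.92 and 10.88 in mock sorted, 11.27, 11.10 and 10.99 in trypsinized and 10.80, 10.65 and 10.85 in untrypsinized arrays, with a trypsinized minus untrypsinized change of 0.36 (SE 0.09, adjusted p = 0.0192). With a common array median the change of Ccl3 was 0.22 (adjusted p = 0.0658) and that of Ccl4 was 0.30 (adjusted p = 0.0116).

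The monocyte attractants next to Ccl11 on chromosome 11 had no adjusted p of 0.05 or below in any comparison, apart from the dim Ccl12. Ccl2, the main Ccr2 ligand, averaged 11.83 ± 0.13 in mock sorted, 12.03 ± 0.10 in trypsinized and 12.01 ± 0.02 in untrypsinized arrays (SD, n = 3 each). Ccl7 averaged 10.85 ± 0.27, 11.01 ± 0.24 and 11.08 ± 0.17 and Ccl8 averaged 8.16 ± 0.41, 8.58 ± 0.26 and 8.55 ± 0.15 in the same groups. Ccl8 was at 7.70 in mock sorted replicate 2 and at 8.31 or above in the other arrays. Ccl12 had a trypsinized minus untrypsinized change of 0.33 (adjusted p = 0.0202) at levels of 6.74 to 7.30, and the change was 0.20 (adjusted p = 0.131) with a common array median. Between genes that lie side by side, Ccl11 was therefore called while Ccl2, Ccl7 and Ccl8 were not, and the difference between their changes was not tested.

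Ccl5 and Ccl22 were high in single arrays of 2 groups and were not called. Ccl5, a product of T cells and natural killer cells, was at 11.74, 10.39 and 10.40 in mock sorted, 11.87, 10.77 and 10.55 in trypsinized and 10.17, 10.26 and 10.21 in untrypsinized arrays. Replicate 1 was high in both mock sorted and trypsinized cells, and all arrays of these groups lay above the untrypsinized ones. The trypsinized minus untrypsinized change was 0.85 (SE 0.42, adjusted p = 0.173), and 0.42 (adjusted p = 0.0358) without the replicate 1 arrays of all groups. Ccl22, a product of activated dendritic cells, was at 8.67, 7.57 and 7.79 in mock sorted, 8.72, 7.56 and 7.47 in trypsinized and 7.61, 7.26 and 7.33 in untrypsinized arrays, with changes of 0.52 (trypsinized minus untrypsinized, adjusted p = 0.333) and 0.61 (mock sorted minus untrypsinized, adjusted p = 0.224). Without the replicate 1 arrays of all groups these changes of Ccl22 were 0.22 (adjusted p = 0.156) and 0.38 (adjusted p = 0.0281). For mock sorted minus untrypsinized cells Ccl5 was at 0.63 (adjusted p = 0.267), and at 0.16 (adjusted p = 0.186) without those arrays.

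The same replicate 1 arrays were high in T cell markers, as given above, and in Ccr7, the receptor of lymph node homing. Ccr7 was at 12.03, 10.89 and 9.62 in mock sorted, 12.23, 11.00 and 9.83 in trypsinized and 10.50, 9.74 and 9.33 in untrypsinized arrays. Its change was 1.16 (SE 0.72, adjusted p = 0.265) for trypsinized and 0.99 (SE 0.72, adjusted p = 0.303) for mock sorted minus untrypsinized cells. The 7 dendritic cell markers summed to 6562 in mock sorted and 7237 in trypsinized replicate 1, and to 4157 to 5200 in the other 7 arrays. All 9 T cell markers had a positive trypsinized minus untrypsinized change, with a median of 1.39 and 2 called (22.2%, where 0.532% of all genes were called higher). Without the replicate 1 arrays of all groups, all 9 were still positive, with a median of 0.93 and 7 called, where 101 of the 19938 genes were called higher. Ccr7 was at 0.88 (adjusted p = 0.318) in that fit, and at 0.72 (adjusted p = 0.344) for mock sorted minus untrypsinized cells, and was not called. In mock sorted against untrypsinized cells the 9 T cell markers had a median change of 1.36 with 3 called (33.3%, where 1.08% of all genes were called higher). Without the replicate 1 arrays of all groups this median was 0.84 with 6 called, where 188 of the 19938 genes were called higher. The part of these cells in the values of Ccl5 and Ccl22 was not tested.

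**Figure D4:**
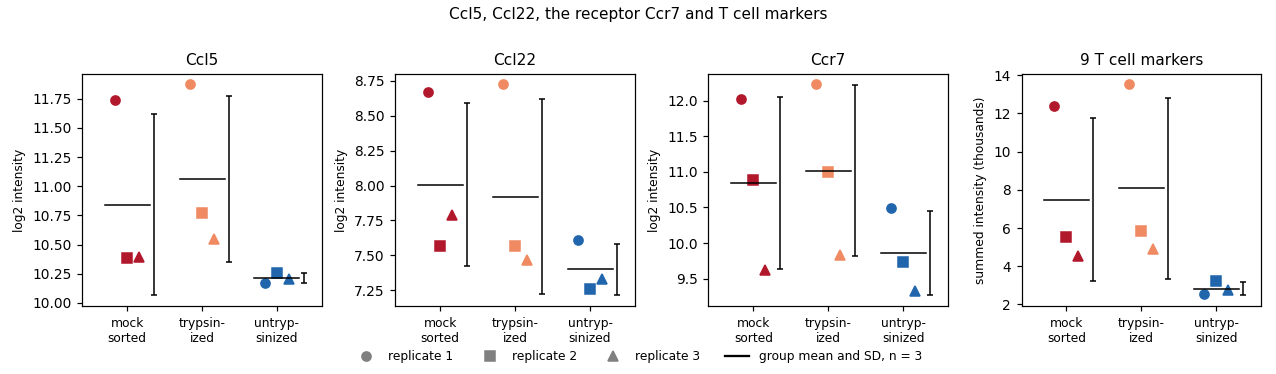
Log2 intensity of Ccl5, Ccl22 and the receptor Ccr7 and the summed intensity of 9 T cell markers (vertical axes, scaled per panel), per array, with group means and SD of 3 arrays. Replicate 1 (circles) is the highest array of the mock sorted and of the trypsinized group in all 4 panels.

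Of the other CC ligands, Ccl17 and Ccl20, attractants of T cells and dendritic cells, and the dim Ccl26 had small positive changes in mock sorted against untrypsinized cells. These were 0.25, 0.29 and 0.24 (adjusted p = 0.0328, 0.0381 and 0.0315), and 0.10, 0.14 and 0.09 with a common array median (adjusted p = 0.371, 0.186 and 0.275). The dim genes Ccl1 and Ccl24 had no change with an adjusted p of 0.05 or below. Cx3cl1 and Cxcl16 are made as membrane-bound proteins that tether leukocytes before they are shed. Cx3cl1 averaged 11.99 ± 0.03 in mock sorted, 12.01 ± 0.03 in trypsinized and 11.92 ± 0.06 in untrypsinized arrays (SD, n = 3 each) and was not called. Cxcl16 averaged 11.45 ± 0.05, 11.47 ± 0.07 and 11.27 ± 0.03 in the same groups, with a trypsinized minus untrypsinized change of 0.19 (adjusted p = 0.0211) that was 0.06 (adjusted p = 0.407) with a common array median.

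Cxcl17, a chemokine of mucosal epithelia, was not called, but its values were ordered by group. It was at 11.24, 11.27 and 11.32 in mock sorted, 10.97, 11.02 and 11.12 in trypsinized and 10.71, 10.89 and 10.67 in untrypsinized arrays. The groups did not overlap, in the opposite order to Cxcl9. Its mock sorted minus untrypsinized change was 0.52 (SE 0.06, adjusted p = 0.000525), under the minimum fold, and 0.37 (adjusted p = 0.00379) with a common array median. Without untrypsinized replicate 2 it was 0.59 and passed the fold. With no minimum fold, 9 members were higher and 7 lower in this comparison, or 29% and 22.6% where 21% and 18% of all genes were.

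Receptors were read as the other side of the pathway, and 4 of 22 measured were called in mock sorted against untrypsinized cells. These were 1 higher and 3 lower (4.55% and 13.6%, where 1.08% and 3.4% of all genes were). Trypsinized against untrypsinized cells gave 1 higher, and mock sorted against trypsinized cells 1 lower (4.55% each, where 0.532% and 1.17% of all genes were). Atypical receptors bind chemokines without signalling for migration, and of the 4 measured, Ackr1, Ackr3 and Ackr4 were called lower and Ackr2 was not called. Ackr1, which carries chemokines across the endothelium of venules, was at 11.35, 11.13 and 11.27 in mock sorted, 12.18, 12.23 and 12.20 in trypsinized and 12.41, 12.57 and 12.57 in untrypsinized arrays. It fell by 0.95 (SE 0.07, adjusted p = 0.000174) in mock sorted against trypsinized cells and by 1.27 (SE 0.07, adjusted p = 5e-06) against untrypsinized cells. Ackr4, a scavenger of homeostatic chemokines, averaged 8.49 ± 0.04, 8.74 ± 0.08 and 9.28 ± 0.07 in mock sorted, trypsinized and untrypsinized arrays (SD, n = 3 each), and Ackr3, the scavenger of Cxcl12, averaged 8.67 ± 0.15, 9.10 ± 0.13 and 9.43 ± 0.19. Mock sorted minus untrypsinized was -0.80 for Ackr4 (SE 0.05) and -0.76 for Ackr3 (SE 0.11). Ackr2, a scavenger of inflammatory CC chemokines, lay the other way, at 8.83, 8.83 and 8.75 in mock sorted, 8.80, 8.78 and 8.88 in trypsinized and 8.30, 8.53 and 8.51 in untrypsinized arrays. Its change was 0.35 for mock sorted minus untrypsinized (SE 0.06, adjusted p = 0.00362) and 0.37 for trypsinized minus untrypsinized cells (SE 0.06, adjusted p = 0.00599), under the minimum fold.

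Of the receptors that signal, Ccr8, found on subsets of T cells, was called higher in trypsinized and mock sorted against untrypsinized cells at dim levels of 7.63 to 8.04 in mock sorted, 7.32 to 7.96 in trypsinized and 6.70 to 6.96 in untrypsinized arrays. The changes of Ccr8 were 0.68 (SE 0.18, adjusted p = 0.0296) for trypsinized and 0.93 (SE 0.18, adjusted p = 0.0053) for mock sorted minus untrypsinized cells. Without the replicate 1 arrays of all groups its change was 0.39 (adjusted p = 0.116, not called) for trypsinized and 0.90 (adjusted p = 0.00817) for mock sorted minus untrypsinized cells. Cxcr3, the receptor of Cxcl9, Cxcl10 and Cxcl11, was at 7.89 to 8.23 over the 9 arrays, and Cxcr4, the signalling receptor of Cxcl12, at 10.73 to 11.43, and neither was called. With no minimum fold, 6 of 22 receptors were higher and 4 lower in mock sorted against untrypsinized cells, or 27.3% and 18.2%, close to the 21% and 18% of all genes.

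Markers of endothelial cells and pericytes, and the summed adipocyte markers, were lower in the groups in which these ligands and receptors fell. Of the 14 measured endothelial markers 13 were called lower in mock sorted against trypsinized cells, at a median of -1.06, and all 14 against untrypsinized cells, at a median of -1.51. Over all genes, 1.17% and 3.4% were called lower in these comparisons. The summed intensity of Cxcl9, Cxcl10 and Cxcl11 was 3274, 2411 and 3022 in mock sorted, 5120, 5003 and 5189 in trypsinized and 5880, 6173 and 6469 in untrypsinized arrays. Mock sorted replicate 2 was the lowest array for this sum. It was also the lowest for the endothelial, pericyte, fibroblast and macrophage sums, though not for the adipocyte sum, so this match was not particular to endothelial markers. None of the endothelial markers was near the olfactory receptor median, the lowest value being 8.65 for Tek. The 7 pericyte markers summed to 6206 to 7014 in mock sorted, 10882 to 11439 in trypsinized and 13770 to 15351 in untrypsinized arrays, with 4 called lower in mock sorted against trypsinized cells (median -0.88) and 5 against untrypsinized cells (median -1.43). The 7 measured adipocyte markers summed to 2698 to 3140 in mock sorted, 4755 to 5371 in trypsinized and 6553 to 8079 in untrypsinized arrays. In those comparisons 2 (Aqp7 and Car3) and 3 (these and Retn) were called lower, at medians of -0.16 and -0.24. The adipocyte list was split, with 3 of 7 changes positive in each comparison. Fibroblast markers summed to 29052 to 31615 in mock sorted, 31106 to 34224 in trypsinized and 34841 to 38865 in untrypsinized arrays, with 1 of 9 called lower in mock sorted against untrypsinized cells. The part of endothelial, pericyte, adipocyte and fibroblast RNA in the lower values of Cxcl9, Cxcl10, Cxcl11, Cxcl12 and Ccl11 was not tested.

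**Figure D5:**
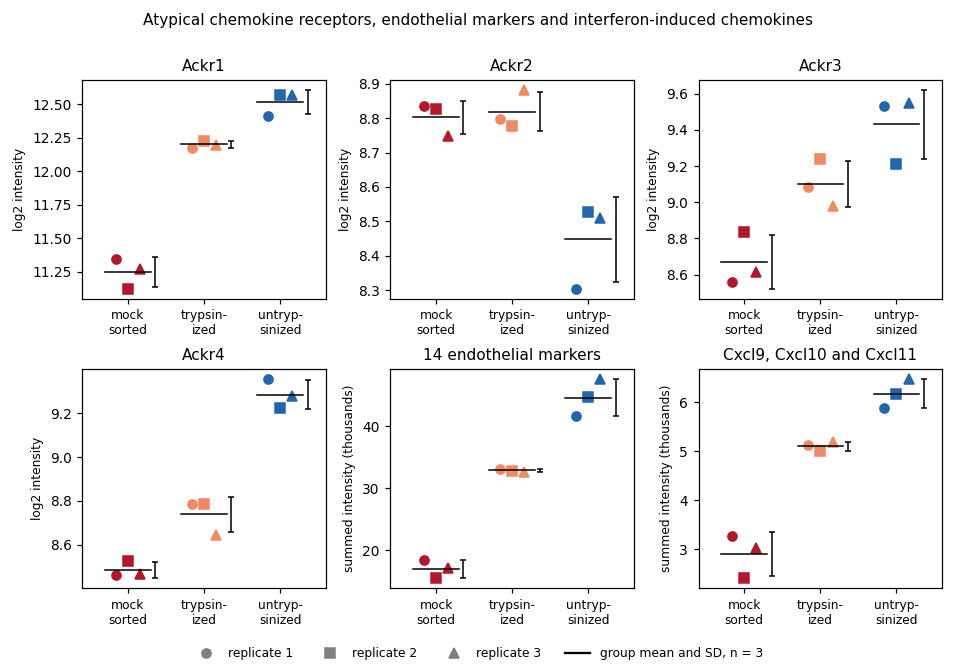
Log2 intensity of the atypical receptors Ackr1, Ackr2, Ackr3 and Ackr4, and the summed intensity of 14 endothelial markers and of Cxcl9, Cxcl10 and Cxcl11 (vertical axes, scaled per panel), per array, with group means and SD of 3 arrays. The 3 mock sorted arrays lie below all untrypsinized arrays in every panel except that of Ackr2, where they lie above.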

How the data were processed

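RNA of 9 mouse mammary cell preparations was measured on Affymetrix arrays, 3 per group. The authors deposited intensity values on a linear scale, 1 per row and array, for 35512 rows. How background was corrected, probes summarised and arrays scaled was not given in the sources used here; limma is named in the submitters' processing notes. Array medians were 345 to 408, and precision is limited by having 3 arrays per group. Rows were named through a platform annotation that can be old: 21789 had 1 symbol, of which 21698 were updated by gene number with RefSeq (GRCm38.p6), 1621 had several and 12102 were unnamed here. The row with the highest mean stood for each gene; 1 member, Ccl25, had more than 1 row.

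Log2(intensity + 1) was fitted with limma 3.58.1 in R 4.3.3, with a mean per group over all 9 arrays, and p-values were adjusted over 19938 genes. The fit was run on simulated data whose arrays were drawn independently. These lack the correlation between arrays of the same number given below, so its effect on the calls was not tested there. The design text gives p of 0.05 and 1.5-fold without saying whether p was adjusted, and does not name the comparison of mock sorted with untrypsinized cells. Every member is accounted for, and receptors, NF-kB responders and interferon response genes are named where called, by smallest p, with uncalled examples, Ackr2 included, picked after their values were seen. Members, roles, lists and motifs were chosen with earlier results of these data known. Deviations from the group means correlated at 0.53, 0.29 and 0.29 between mock sorted and trypsinized arrays of the same number. Pairing of these arrays, taken from the values and not the labels, was used only in alternative fits. The main fit, which gave the calls above, had no block. The correlations were 0.32, 0.18 and 0.06 for mock sorted with untrypsinized arrays and 0.11, 0.04 and -0.04 for trypsinized with untrypsinized arrays. Untrypsinized arrays were paired with others only in the replicate block over 9 arrays. Alternatives covered scaling, pseudocount, dim genes, row choice, variance model, array weights, arrays fitted, threshold, replicate block and each array left out.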

Additional observations from a re-analysis of the deposited data

How the results depend on the processing

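Of the called values, those of Cxcl9 in both comparisons and of Cxcl10, Cxcl11, Cxcl12, Ccl9 and Ccl11 in mock sorted against untrypsinized cells were called under every alternative run. The count of members called lower in mock sorted against trypsinized cells was 1 in place of 2, with Cxcl10 lost, after quantile normalization over the tested genes, in a fit of only the 2 groups compared and with a replicate block in the 6 arrays of these groups. The block of 6 arrays and leaving out the replicate 1 arrays together, also for T cell markers and receptors, were chosen after seeing the data. Leaving out arrays gave 1 to 2. With no minimum fold, 6 members were lower in that comparison, 9 higher and 4 lower in trypsinized against untrypsinized cells, and 9 higher in mock sorted against untrypsinized cells. In this last comparison 1 member was called higher with a replicate block over 9 arrays (Ccl22, adjusted p = 0.04), and leaving out arrays gave 0 to 1 called higher (Cxcl17 without untrypsinized replicate 2). The block changed no other call.

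Quantile normalization over all rows moved the median change of the homeostatic ligands to -0.065 in mock sorted against untrypsinized and 0.012 in trypsinized against untrypsinized cells, and a common median over all rows moved it to -0.13 and -0.055. For the neutrophil-attracting ligands the median in trypsinized against untrypsinized cells was 0.12 after quantile normalization over all rows and 0.17 with a common median, and in mock sorted against untrypsinized cells it was -0.069 with a common median. A common median lowers every gene alike, by 0.13 in trypsinized and 0.15 in mock sorted against untrypsinized cells, so its shifts of these medians follow from its construction. It also moved the split of calls over all genes, from 106 higher and 186 lower to 55 and 376 for trypsinized against untrypsinized cells, and from 215 and 677 to 92 and 1028 for mock sorted against untrypsinized cells. Ccl28 turned to -0.031 in mock sorted against untrypsinized cells after quantile normalization over all rows. In all, 61 of 2077 member values under alternatives had the other sign, all but that one for changes without an adjusted p of 0.05 or below, none above 0.24 in size. Many of the 2077 could not differ in sign, since the other thresholds, the variance model and the replicate block keep the log2 change. The cause of the shifts under quantile normalization was not tested. Signal limits 9 dim members, which lay below the 95th percentile of olfactory receptor genes.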
